A study of Saccharomyces cerevisiae with 6 samples.

Results

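The comparison set the genomic run-on profile of a wild-type tetraploid budding yeast against that of a wild-type haploid, the widest gap in ploidy of the series. Its members are 6 run-on arrays of 18 in all, from 2 of 6 strains: 3 of the strain labelled WT 4N (PY4996) and 3 of the strain labelled WT N (BY4741, a laboratory haploid of the S288C lineage), taken by their labels and paired by run-on number (GRO1 to GRO3). Both strains are labelled as untreated wild type and grew exponentially in YPD, a rich medium. A wild-type diploid (PY4993) and a whi5 deletion strain, also in YPD, served as a second pair of strains, and the triploid (PY4997) and cln3 deletion strains entered the fit. The labels give no mating type, markers or origin of the polyploids, and each ploidy is represented by a single strain. Ploidy and strain cannot be told apart.

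In genomic run-on, cells are made permeable with sarkosyl (0.5%) and given 33P-labelled UTP for 5 min at 30 °C, so that polymerases already engaged on a gene extend their transcripts and mark the density of transcription over it. The labelled RNA was hybridised to membranes that carry entire open reading frames, and the signal of each spot was divided by that of genomic DNA on the same membrane. The value is a level relative to the array's median. Budding yeast cells enlarge with ploidy, and cells that hold both mating types make a repressor that shuts off genes used only by haploids. Because each array was centred on its median, a change shared by all open reading frames leaves no trace here.

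Each array held 6144 spots, of which 5934 could be tested. The files name a spot by block row, block column and position and pair none with a gene, so genes, pathways and sequences are not given, and the labelled ploidy was not checked on a gene. Signal-to-noise (S/N, signal over local noise as the imaging program gave it) was at least 2 at 83.7%, 78.1% and 77.1% of spots on the tetraploid arrays and at 73.5%, 76.5% and 76.4% on the haploid arrays, so that every tetraploid array had a larger share of detected spots than every haploid array. Median run-on intensity was 96.1, 68.4 and 73.6 on the tetraploid arrays and 39.0, 85.4 and 80.1 on the haploid arrays. Before centring, the median log2 ratio was 0.85, 0.21 and 1.43 on the tetraploid arrays against 0.51, 1.01 and 0.93 on the haploid arrays. The strains overlapped in median intensity and in this ratio. With 3 arrays per strain the number of arrays limits the precision, and since no label says that they came from separate cultures, p-values measure the spread between these arrays only.

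Most of the profile was alike. The fitted tetraploid minus haploid difference lay within 0.5 log2 units of 0 at 84.8% of tested spots and within 1 unit at 96.5%, with a median of -0.03 and a median standard error of 0.26. Correlation across spots between a tetraploid and a haploid array ranged from 0.846 to 0.909 over 9 pairs of arrays. It ranged from 0.880 to 0.928 among the 3 tetraploid arrays and from 0.873 to 0.942 among the 3 haploid arrays. The median standard deviation of a spot over 3 arrays was 0.27 in the tetraploid and 0.27 in the haploid. The GRO1 haploid array resembled the GRO1 tetraploid array (r = 0.881) about as much as it did the other haploid arrays (r = 0.883 and 0.873).

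The difference was lopsided. A fitted difference below -1 was found at 159 spots and one above 1 at 47 spots. Below -2 there were 25 spots, above 2 there were 3. The same held in each pair of equal run-on number. In the GRO1 pair 246 spots were more than 1 log2 unit lower in the tetraploid and 140 higher, in the GRO2 pair 275 and 107, and in the GRO3 pair 329 and 166. Single arrays vary by about as much: differences beyond 1 unit made up 6.47% to 11.9% of spots between strains, 4.89% to 8.98% between tetraploid arrays and 3.37% to 9.69% between haploid arrays. Pairs of arrays of 1 strain could be lopsided as well. Their lower and higher spots ran from 146 and 143 to 162 and 279 in the tetraploid, and from 221 and 255 to 66 and 133 in the haploid. The imbalance of a single pair is therefore not by itself a difference between strains.

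Limma took the spread of each spot from all 18 run-on arrays of the 6 strains. By its test, 72 of 5934 spots (1.21%) passed a Benjamini-Hochberg adjusted p under 0.05. Relative run-on density was lower in the tetraploid at 65 of them (1.1% of tested spots) and higher at 7 (0.118%). When the spread came from the 6 tetraploid and haploid arrays alone, 35 spots passed (31 lower, 4 higher). In a culture, fewer transcribing cells and less transcription per cell cannot be told apart. Whether each strain carries the sequence of a spot was not checked, since each genomic DNA hybridisation served all strains on its membrane. The falls had a median log2 difference of -1.50 and ranged from -8.39 to -0.74, and 19 of the 65 exceeded 2 units. No fall beyond -2.82 had an S/N of at least 2 on all 6 arrays, so those sizes rest in part on signals not above background. The rises had a median of 1.32 and ranged from 0.82 to 4.00. At none of the 72 did the tetraploid and haploid values overlap. Among all tested spots 9.67% had every tetraploid value below every haploid value and 5.24% had every one above.

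**Figure D1:**
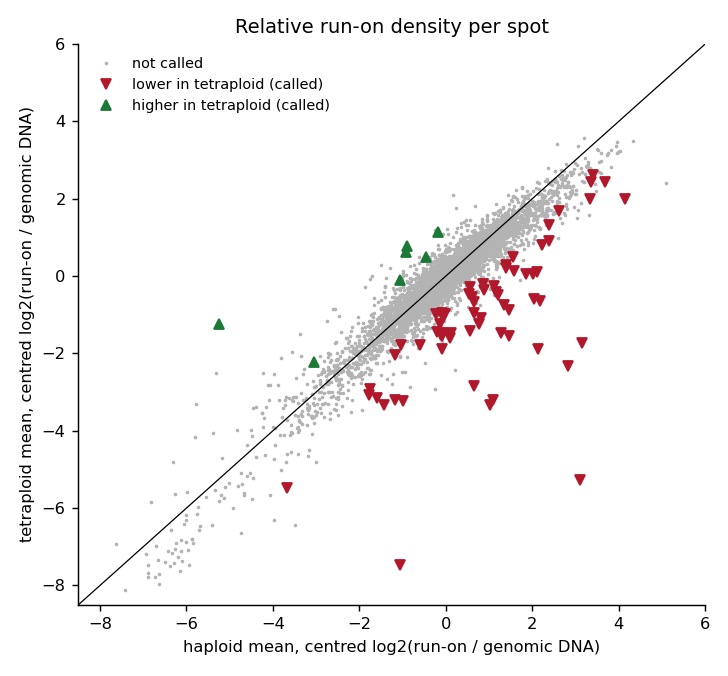
Each point is 1 of 5934 tested spots, with its haploid mean on the x axis and its tetraploid mean on the y axis (centred log2(run-on / genomic DNA), mean of up to 3 arrays). The black line marks equal levels. The 65 spots called lower in the tetraploid lie below it at all levels of transcription, and the 7 called higher lie above it.

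Same-numbered arrays deviated together from their strain means (r = 0.35, 0.15 and 0.16 across spots). Pairing by run-on number was clear for GRO1 only. The GRO2 tetraploid array and the GRO3 haploid array deviated together more closely (r = 0.24) than the GRO2 or the GRO3 arrays did. Deviations from a strain's mean cancel within the strain, so these correlations depend on one another. With run-on number as a block, 119 spots were lower and 16 higher, and all 72 spots were among them. The effect of membrane depended on how it entered the fit. As a fixed block it left 30 lower, 26 of them among the 65, and 3 higher, whereas as a random block it gave 112 lower and 17 higher, with all 72 spots among them. A lost call does not show a smaller difference. Single arrays also moved the count, which was 43 without tetraploid replicate 2, 40 without tetraploid replicate 3, 42 without haploid replicate 2 and 33 without haploid replicate 3.

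The falls differed in how well they were measured, as did spots at large. Of all 6144 spots, 4006 had a run-on S/N of at least 2 on all 6 arrays. At 40 of the 65 spots both strains were measured, with S/N of at least 2 on all 6 arrays, and there the difference had a median of -1.35 and a range of -2.82 to -0.74. At these spots the relative run-on density was reduced in the tetraploid and its signal was still above background. Genomic DNA had an S/N of at least 2 on all 5 membranes of the comparison at 24 of the 40. At 13 spots the tetraploid was not above background (S/N under 2) on any array. In 5 of these 13 the haploid had an S/N of at least 2 on all 3 arrays. Genomic DNA reached that S/N on all 5 membranes at only 2 of the 5. Set against a floor for the tetraploid signal, the bound on the loss at the 5 ran from 2.3-fold to 18-fold, with a median of 5.1-fold. At 1 of the 13 the haploid was not above background on any array either, and at the rest it was on some arrays only. The other 12 of the 65 falls were above background on some tetraploid arrays at least, but not on all 6 arrays. For each bound the haploid mean was set against a floor on every tetraploid array. The floor was the weakest signal that reached an S/N of 2 there, or the spot's signal where that was stronger. Because noise is local, a spot's own detection limit can lie above this floor, and the bound is then too large. Genomic DNA was itself below an S/N of 2 on at least 1 of the 5 membranes at 30 of the 65 falls (46.2%), against 57.5% of tested spots.

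The largest fall measured on both sides, with genomic DNA well above noise, was at row 10, column 18, position 15. Its centred log2 ratio was -0.55, -0.52 and -0.87 on the tetraploid arrays, against 2.13, 2.34 and 2.04 on the haploid arrays. The strains were far apart, with the haploid well above the array median and the tetraploid below it. Signal was 221, 146 and 122 in the tetraploid and 517, 1780 and 1150 in the haploid, with S/N from 8.40 to 11.44 and from 44.22 to 61.23. The mean was -0.65 ± 0.20 in the tetraploid and 2.17 ± 0.15 in the haploid (SD, n = 3 arrays each), a log2 difference of -2.82 (SE 0.28, limma adjusted p = 2.9e-05), which is 7.04-fold lower. The spot was likewise low in the diploid (-0.44 ± 0.62) and high in the whi5 deletion (1.98 ± 0.29; SD, n = 3 arrays each).

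Among falls to background with genomic DNA well above noise, the one with the highest haploid level was at row 11, column 11, position 8. The log2 ratio was -2.42, -3.59 and -3.98 on the tetraploid arrays, against 1.42, 1.06 and 0.56 on the haploid arrays. Signal of 13.3, 4.14 and 3.49 in the tetraploid was not above background (S/N 0.35 to 0.99), whereas 78.6, 207 and 125 in the haploid was (S/N 10.17 to 15.10). Genomic DNA at the spot had S/N from 4.22 to 8.61. Set against the floor described above, relative run-on density there was at least 8.7-fold lower in the tetraploid (limma adjusted p = 2.6e-06 for the fitted difference). The bound is smaller if the spot's own detection limit lay above that floor.

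The 7 rises included 1 beyond 2 log2 units, which came from background. At row 4, column 11, position 8 the log2 ratio was -1.58, -1.10 and -1.05 on the tetraploid arrays, against -4.18, -6.26 and -5.28 on the haploid arrays. Signal was 39.7, 51.1 and 60.4 in the tetraploid (S/N 2.97 to 5.48), and 3.65, 1.37 and 2.81 in the haploid, where it was not above background (S/N 0.10 to 0.38). Set against the same kind of floor on the haploid arrays, the rise was at least 2.6-fold (limma adjusted p = 0.00032 for the fitted difference). Here too the bound is smaller if the spot's own detection limit lay above the floor. Its level was also low in the whi5 deletion (-4.74 ± 1.07), but not in the cln3 deletion (-0.99 ± 0.48; SD, n = 3 arrays each), whose source label conflicts with its title as to strain and medium.

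The 1 rise measured on all 6 arrays with genomic DNA well above noise was at row 4, column 9, position 6. The log2 ratio was 0.62, 1.44 and 1.34 on the tetraploid arrays and -0.20, -0.17 and -0.20 on the haploid arrays, without overlap. The log2 difference was 1.32 (SE 0.24, limma adjusted p = 0.011). The call did not survive a fixed membrane block (difference 1.16, adjusted p = 0.14), a fit of only the 6 arrays (1.32, 0.094), or the removal of tetraploid replicate 2 (1.17, 0.069) or 3 (1.22, 0.068) or haploid replicate 3 (1.32, 0.055).

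**Figure D2:**
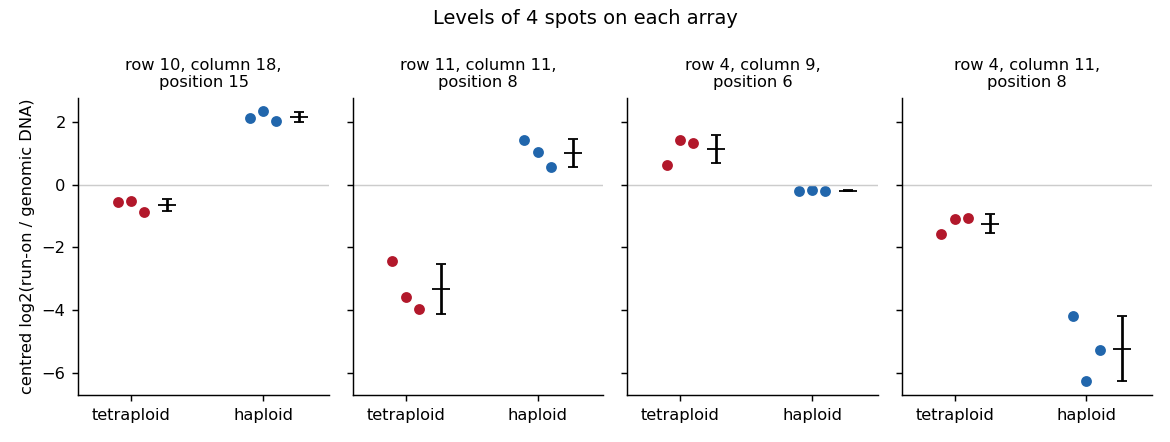
Centred log2(run-on / genomic DNA) on the y axis, at 4 spots on the 3 tetraploid (red, left) and 3 haploid arrays (blue, right), with the mean and SD of each strain (n = 3) in black. The first 2 panels show falls and the last 2 rises. In no panel do the strains overlap.

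Paired by run-on number, all 3 differences were below -1 at 50 of 5876 spots with 3 pairs (0.851%) and above 1 at 8 (0.136%). Of these, 38 and 2 were also called by limma. Beyond 2 units in all 3 pairs there were 9 spots lower and 1 higher, and all 10 were called. Lower spots outnumbered higher ones at each of these thresholds.

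Membrane 12 carried the GRO3 tetraploid array and the GRO1 haploid array, so that the difference there is free of differences between membranes and of genomic DNA. To use it as a check, spots were called again without those 2 arrays. This gave 26 spots lower (0.439% of 5929) and 2 higher (0.0337%). Of the 26, 25 had signal on both membrane 12 arrays, and all 25 were lower in the tetraploid there, 22 by more than 1 unit. Over all tested spots 52.9% were lower on membrane 12 and 7.88% were lower by more than 1 unit. The median membrane 12 difference at the 25 spots was -1.74 (-7.01 to -0.51), beside a fitted median of -2.27 on the other arrays for the 26. Both rises were also higher on membrane 12, by 1.82 and 3.13. With 1 array of each strain on the membrane there is no test, and run-on number differs between the arrays.

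**Figure D3:**
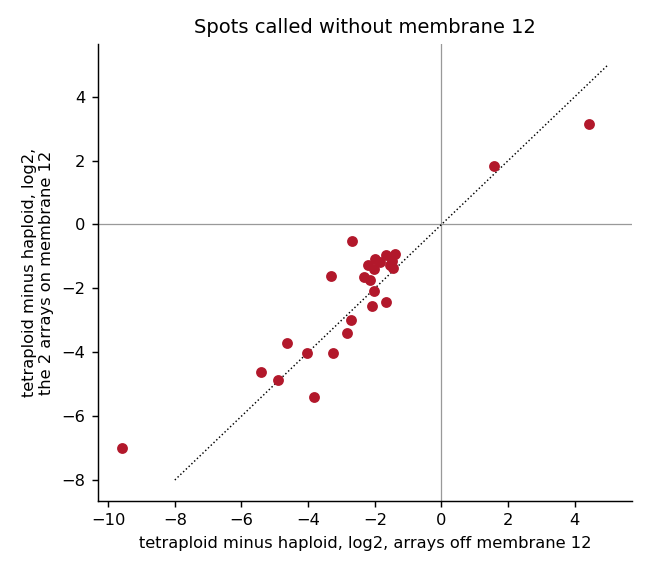
Log2 tetraploid minus haploid difference on the 2 arrays of membrane 12 (y axis) against the difference fitted without those arrays (x axis), for the 27 called spots with a value. The dotted line marks equality. The 25 falls all lie below 0 and both rises above 0 on membrane 12.

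A second pair of strains asked whether the same spots differ elsewhere. The labels give no ploidy for the whi5 deletion strain, and the deletion itself also separates the pair. The pair is therefore not a comparison of ploidy alone. The diploid minus whi5 deletion difference uses no run-on array of the tetraploid or haploid, but its p-values do. The spread of each spot was estimated from the arrays of all strains together. A spot with little spread is therefore favoured in both lists of calls, and the overlap of calls is not independent support. Only the differences are free of the tetraploid and haploid arrays. The diploid minus whi5 deletion contrast called 47 spots lower (0.792% of 5934) and 5 higher (0.0843%). Of the 65 falls, 39 were among the 47, which is 60% of the falls and 83% of the 47. The diploid was below the whi5 deletion at 61 of the 65, with a median difference of -1.19, while 50.3% of all tested spots were below 0. Of the 7 rises, 2 were called higher and 6 were above 0. Both named falls recurred, with differences of -2.42 and -4.31 (limma adjusted p = 0.00014 and 4.7e-06). The rise at row 4, column 11, position 8 recurred with 2.89 (adjusted p = 0.0059), while that at row 4, column 9, position 6 was not called (0.64, adjusted p = 0.61).

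The 2 contrasts still shared membranes 17 and 18. Leaving out the diploid and whi5 deletion arrays on these leaves 1 diploid array, so only the differences are given. The diploid was again lower at 61 of the 65 falls, with a median of -1.08, against 49.4% of all tested spots.

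**Figure D4:**
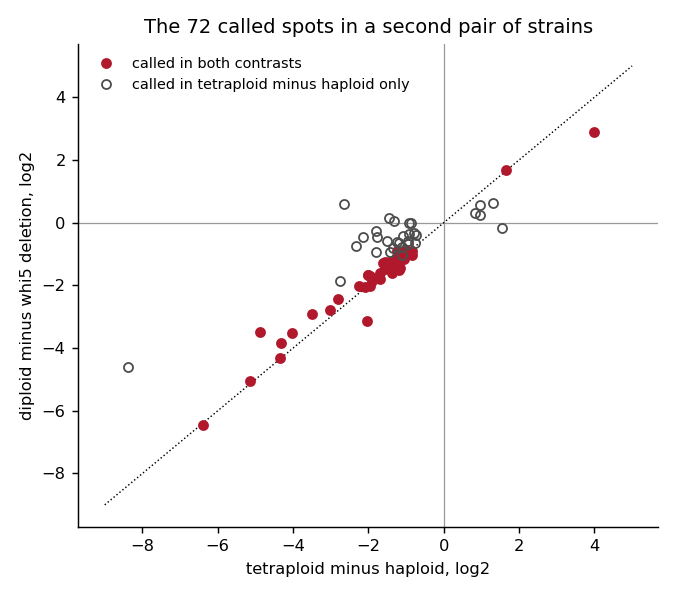
Log2 difference of diploid minus whi5 deletion (y axis) against tetraploid minus haploid (x axis) at the 72 spots called in tetraploid minus haploid. Filled points are called in both contrasts (39 lower, 2 higher), open points in tetraploid minus haploid only, and the dotted line marks equality.

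The 26 falls not called in the second pair were smaller there, which a split by that pair's own test favours. Their median was -1.29 for tetraploid minus haploid and -0.58 for diploid minus whi5 deletion, and 11 of the 26 lay within 0.5 units of 0 in diploid minus whi5 deletion. The 39 called in both had medians of -1.69 and -1.62. Whether the 26 differ between the contrasts was not tested.

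Across strains, the median level at the 65 falls was -0.99 in the tetraploid, -0.95 in the triploid and -0.93 in the diploid. It was 0.55 in the whi5 deletion, 0.37 in the cln3 deletion (whose labels conflict) and 0.85 in the haploid. The diploid lay nearer the tetraploid than the haploid at 61 of the 65 spots, the triploid at all 65, the whi5 deletion at 5 and the cln3 deletion at 26 of 64 with a value. The spots were chosen on the tetraploid and haploid values, and these counts are a description.

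The spread of the profile as a whole was similar. The median absolute deviation of the centred log2 ratio was 0.89, 0.97 and 1.02 on the tetraploid arrays and 0.94, 0.96 and 1.05 on the haploid arrays, a difference of -0.02 (two-sided exact permutation p = 0.8). The interquartile range differed by -0.03 (exact p = 0.8) and the range from the 5th to the 95th percentile by -0.18 (exact p = 0.5). The smallest p that 3 arrays against 3 allow is 0.1. Arrays of 1 strain differed by more than the strain means did.

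The upper end of the profile was lower in the tetraploid than in the haploid. The 95th percentile was 1.59, 1.67 and 1.76 on the tetraploid arrays, against 1.87, 1.92 and 2.02 on the haploid arrays (difference -0.26, exact permutation p = 0.1). These did not overlap. On the arrays of the other 4 strains the 95th percentile lay from 1.65 to 1.88. The 5th percentile was -2.37 ± 0.17 in the tetraploid and -2.29 ± 0.13 in the haploid (SD, n = 3 arrays each), and the difference of -0.08 was within the spread (exact p = 0.5).

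To see where along the scale the difference lay, spots were ranked by their mean level in the other 4 strains, which are not part of the contrast, and cut into 10 bins of equal size. In the lower 9 bins the difference of the strain means lay from -0.06 to 0.03. In the highest bin, 594 spots, the median level was 1.57, 1.65 and 1.71 on the tetraploid arrays against 1.81, 1.88 and 1.96 on the haploid arrays. The strain means differed by -0.24, and the pairs by -0.24, -0.23 and -0.25 (exact permutation p = 0.1, the smallest possible; 0.833 after Benjamini-Hochberg adjustment over 10 bins). In this bin 456 spots (76.8%) were lower in the tetraploid, against 53.3% of all tested spots, and 25.6% were lower by more than 0.5 units, against 10.4%. The highest 5% of spots differed by -0.37 (exact p = 0.1) and the highest 1%, 60 spots, by -0.41 (exact p = 0.2). Few of these single spots passed the test, 10 of the 594 falling individually.

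**Figure D5:**
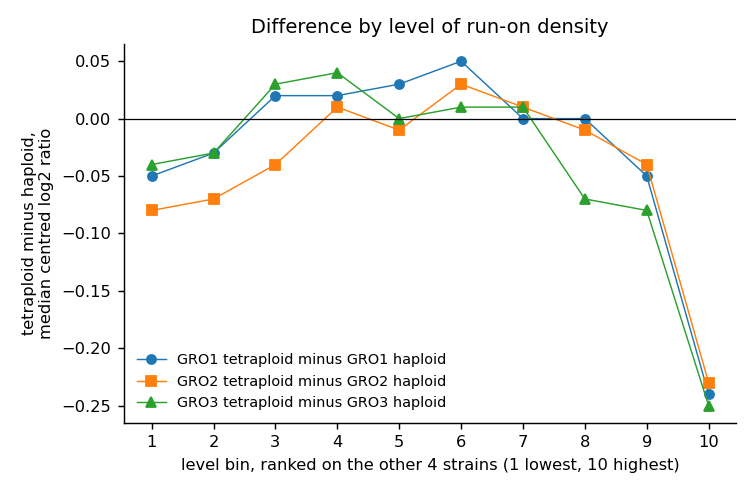
Tetraploid minus haploid difference of the median centred log2 ratio (y axis) in each level bin (x axis, 1 lowest to 10 highest, ranked on the other 4 strains), with a line for each pair of run-on number. The 3 pairs lie between -0.08 and 0.05 in bins 1 to 9 and between -0.25 and -0.23 in bin 10.

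The size of this difference moved with the processing. On membrane 12, where the GRO3 tetraploid array is set against the GRO1 haploid array, the difference was -0.10 for the highest bin, -0.16 for the highest 5% and 0.06 for the highest 1% of spots, the last with the opposite sign. It was -0.16 without division by genomic DNA and -0.06 with density not corrected for background. Quantile normalisation (0.01) and cyclic loess (-0.04) remove such differences by construction. With the bins set on triploid and cln3 deletion arrays, the difference was -0.22 for tetraploid minus haploid (exact p = 0.1) and -0.05 for diploid minus whi5 deletion (exact p = 0.4). The mean level of this highest bin was 1.64 in the tetraploid, 1.68 in the diploid, 1.73 in the whi5 deletion and 1.86 in the haploid. The haploid was thus the highest of these strains, and the tetraploid was close to the diploid.

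Called falls occurred at all levels: the bins held between 2 and 11 of them, with 9 in the lowest bin and 10 in the highest. They were scattered over the membrane as well, in all 16 rows of blocks and in 59 of 384 blocks, with no more than 2 in a block. Of the falls, 18.5% shared a block with another fall, and 14.5% of all tested spots lay in a block with a fall other than themselves.

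Counting detection alone gave another balance. Of 2523 spots with genomic DNA at S/N of at least 2 on all 5 membranes, 2142 were detected on all 6 arrays. At 4 spots (0.159%) detection was lost, with S/N of at least 2 on all haploid arrays and on no tetraploid array, and at 12 (0.476%) it was gained. The 4 losses had log2 differences from -4.34 to -0.46, and 2 were called by limma. The 12 gains had a median log2 difference of only 0.12, 1 was called, and the best haploid S/N had a median of 1.57, just under the threshold. The haploid arrays had the lower share of detected spots, and its part in the gains was not tested.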

How the data were processed

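The deposited files are spot tables of phosphor images, 18 of run-on arrays and 18 of genomic DNA, which are copies of 7 hybridisations, 1 per membrane. Per the file headers, the deposited intensity is a density per area less local background, set to 0 where negative, and S/N is a deposited score of signal over local noise. The sources used here do not name the imaging program. Scaling by the median absolute deviation (MAD), named in the series' design text, comes after these files. Run-on number and membrane were read from the array names, and replicates carry the run-on number.

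Run-on intensity was divided by that of genomic DNA from its own membrane, and log2 values were centred on each array's median. Spots entered if genomic DNA exceeded 0 on each of 7 membranes and run-on exceeded 0 throughout the 3 arrays of at least 1 strain. Signals of 0 were missing (95 values in the 6 arrays, 0.267%). All 18 arrays were fitted by strain means (limma 3.58.1, statmod 1.5.0, R 4.3.3), with Benjamini-Hochberg adjustment over 5934 spots, and the fit was tested on simulated data. Named spots are the largest fall and rise measured on all 6 arrays, and the fall to background and rise from background with the highest level in the strain that was detected, among called spots with genomic DNA S/N of at least 2 on 5 membranes. Single values were compared by exact permutation of arrays. Alternatives were other scalings, divisors, filters and blocks, and leaving out arrays. Tests, lists and alternatives were chosen with earlier results of these data known. The result on the highest level bin was added after the values by bin had been seen, as was the second pair without membranes 17 and 18.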

Additional observations from a re-analysis of the deposited data

How the results depend on the processing

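The 65 falls and 7 rises kept their balance under every alternative run, with rises at 4.65% to 13.2% of calls, except 24.3% with both blocks. The number called (72) moved to 35 with only the 6 arrays (31 lower, 4 higher), 33 with membrane as a fixed block (30 and 3), 129 with a random membrane block (112 and 17) and 135 with run-on number as a block, that is with the replicate block (119 and 16). It moved to 42 without the GRO1 arrays of both strains (38 and 4) and 374 with both blocks fixed at once (283 and 91), the last 2 chosen after seeing the data. With genomic DNA at S/N of at least 2 there were 4 rises. Leaving out 1 array gave 33 to 67 calls, 31 to 59 lower and 2 to 8 higher: 43 without tetraploid replicate 2 (41 lower), 40 without 3 (38), 42 without haploid replicate 2 (37) and 33 without 3 (31). The causes were not tested. The named falls and the rise from background kept their calls under all alternatives that held them. The filter on the upper 75% of run-on signal did not hold that rise. The replicate block changed no call of a named spot.

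The difference in MAD (-0.02) turned to 0.02 without genomic DNA and 0.07 without background subtraction, and ranged from -0.05 to 0.01 without single arrays. The highest minus the lowest level bin differed by -0.18 (exact p = 0.4), turned to 0.11 without background subtraction, and ranged from -0.31 to -0.06 without single arrays. The highest bin (-0.24), a result added after seeing the data, turned to 0.01 with quantile normalisation and otherwise stayed from -0.30 to -0.04. Detection was lost at 2 spots with an S/N threshold of 1.5 and 7 without the genomic DNA filter (4 to 12 without single arrays), and gained at 45 without that filter (13 to 26). Paired differences gave 189 lower and 41 higher spots at 0.5 units, 20 and 3 at 1.5 units, 27 and 3 over all 9 differences between arrays, and 5 higher without genomic DNA. With genomic DNA at S/N of at least 2, 16 held-out falls were lower on membrane 12 and 23 falls were called in the second pair, from 2521 tested spots. Without that filter, 39 falls were called in the second pair, and 11 without its arrays on membranes 17 and 18.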
